A study of Mus musculus with 24 samples.

Results

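The T cell and lymphocyte markers were 10 genes chosen by symbol (Cd3e, Cd3d, Cd3g, Cd4, Cd8a, Lck, Ptprc, Coro1a, Nkg7 and Cd79b), and the 9 that the table holds were examined among 14159 genes. Cd79b was not analysed here. Whole quadriceps muscle of young adult female mice of the strains C57BL/6 (B6 below) and MRL/MpJ (MRL below) was profiled by bulk RNA sequencing in 24 libraries, with 3 in each of 8 groups. In each strain 1 group was uninjured, and the others received a volumetric muscle loss injury, in which a piece of the muscle is cut out. The defect was filled with Saline (the control injury), with ECM (decellularized extracellular matrix from pig small intestine) or with PE (polyethylene particles), and injured muscle was taken 21 days later. Both are inbred strains, and MRL mice are known for closing ear punches, so the strain groups differ at many loci at once.

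T cells read antigen with a receptor whose signal passes through the CD3 chains, encoded by Cd3e, Cd3d and Cd3g. The co-receptors CD4 and CD8 bring the kinase Lck to that complex, and they divide helper from cytotoxic T cells, although some dendritic cells carry them too. Ptprc encodes CD45, the phosphatase that is found on all white blood cells and that switches Lck on. Coro1a encodes an actin regulator of leukocytes, and Nkg7 a granule protein of natural killer cells and cytotoxic T cells. In healing muscle, T cells, above all regulatory ones, are known to act on both macrophages and muscle stem cells.

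The genes of the CD3 chains lie side by side on mouse chromosome 9 (GRCm39), Cd3g at 44880870-44891735 on the minus strand, Cd3d at 44893083-44899173 on the plus strand and Cd3e at 44910037-44920925 on the minus strand. Cd3d and Cd3g start 1348 bases apart and are read away from each other. The 250 bases before each annotated start are shown because Cd3e and Cd3d carried the strain difference described below. The letters are the reference sequence of the B6 strain, and the MRL sequence was not analysed here. Capitals mark the motifs found on either strand among an ETS core (AGGAAG), an E-box (CAGGTG), a RUNX core (TGTGGT) and a TATA box (TATAAA), none of which overlapped another.
Cd3e, chr9:44920912-44921161, minus strand: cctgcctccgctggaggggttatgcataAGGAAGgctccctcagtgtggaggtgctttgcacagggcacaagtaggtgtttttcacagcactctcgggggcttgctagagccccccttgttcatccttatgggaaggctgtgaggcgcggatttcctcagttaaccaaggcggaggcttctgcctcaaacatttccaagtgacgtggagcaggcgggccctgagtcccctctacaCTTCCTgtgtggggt
Cd3d, chr9:44892833-44893082, plus strand: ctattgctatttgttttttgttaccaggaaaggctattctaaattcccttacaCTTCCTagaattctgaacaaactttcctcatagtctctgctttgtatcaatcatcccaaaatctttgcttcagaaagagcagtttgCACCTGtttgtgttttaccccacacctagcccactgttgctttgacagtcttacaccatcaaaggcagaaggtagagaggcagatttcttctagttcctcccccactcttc
Cd3g, chr9:44891736-44891985, minus strand: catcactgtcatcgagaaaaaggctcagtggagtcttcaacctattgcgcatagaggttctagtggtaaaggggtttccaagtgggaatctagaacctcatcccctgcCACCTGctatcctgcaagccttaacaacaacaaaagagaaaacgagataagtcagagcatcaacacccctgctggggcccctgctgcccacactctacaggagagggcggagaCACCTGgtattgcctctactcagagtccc
The ETS core began 222 and 15 bases before the start of Cd3e and 197 bases before that of Cd3d. The E-box began 111 bases before Cd3d and 142 and 29 bases before Cd3g. Windows of the same length before 21751 protein-coding genes held the ETS core in 28.9% of cases, the E-box in 17.7%, the RUNX core in 13% and the TATA box in 11.9%, against 4, 2, 3 and 1 of the 10 genes named above. These matches describe the letters and nothing more.

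The measurements are log2 CPM (counts relative to library size, scaled between libraries), in which the lowest value, -3.65, stands for a count of 0 and -2.33 for 3 counts. At the mean library size of 25149678 counts, the 3 libraries of a group together held about 1 to 231 counts of each of the CD3 genes, Cd4, Cd8a, Lck and Nkg7, and about 386 to 12907 of Ptprc and Coro1a. Genes count as called where limma gave an adjusted p below 0.05, with Benjamini-Hochberg adjustment over all 14159. The authors kept genes above 1 CPM in at least 3 libraries. By the scaled values, Cd3e and Cd3d exceeded 1 CPM in B6 libraries alone, with at most 0.51 and 0.815 CPM in MRL mice. Nkg7 exceeded it in PE-treated B6 libraries alone (1.11 to 2.06 CPM), with at most 0.877 CPM elsewhere. These genes were thus kept through the groups where they are high, which favours those differences before any test. PE-treated MRL replicate 2 stood apart, with 26600 summed CPM of 8 muscle fibre genes against 101000 and 102000 in the other two libraries of its group, and 4320 summed CPM of 20 pan-leukocyte genes against 122 and 136. The counts and calls that rest on PE-treated MRL mice are therefore given with and without it. Scaling libraries to equal totals, in place of the authors' scaling, moved the share of higher genes among those called from 59.5% to 87.2% for PE against uninjured muscle in B6 mice, from 61.1% to 94% in MRL mice, from 48.3% to 28.5% for the average strain difference and from 47.9% to 33.8% for that with ECM. In whole muscle, fewer T cells and less RNA per T cell cannot be told apart. Reads of both strains were also matched to the same reference, and how that affects MRL values was not measured.

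**Figure D1:**
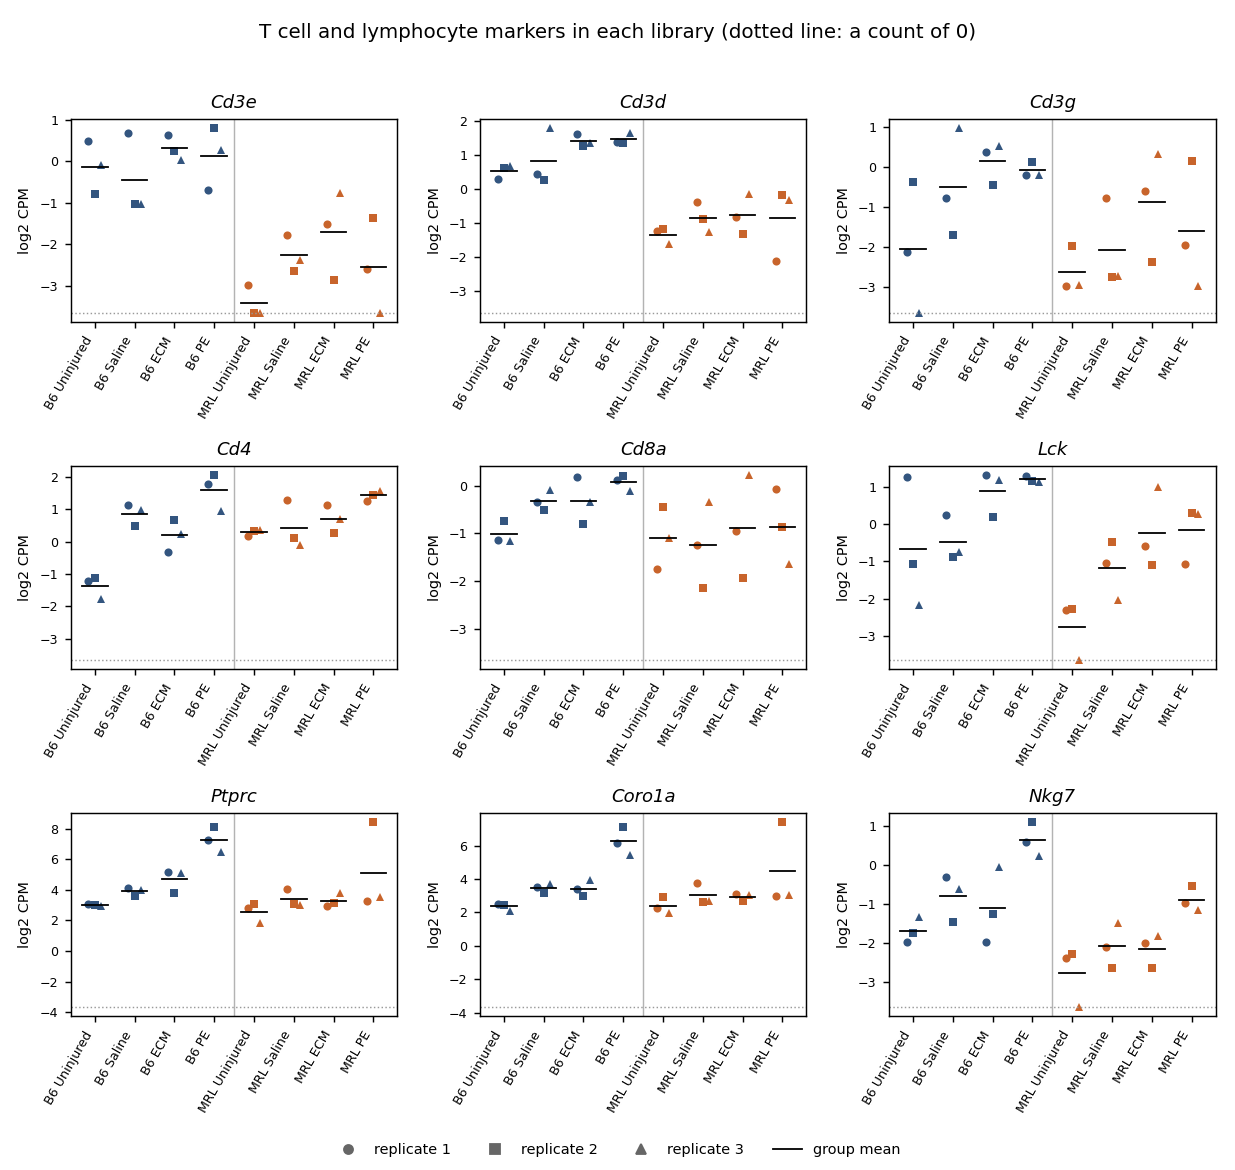
Each panel plots 1 gene in log2 CPM on the vertical axis for the 8 groups, with B6 in blue and MRL in orange, a symbol for each replicate, a bar at the group mean and a dotted line at the value of a count of 0. Cd3d lay lower in every MRL library than in every B6 library, whereas Ptprc and Coro1a were highest in PE-treated B6 mice and in 1 PE-treated MRL library.

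The clearest strain difference among these markers was in Cd3e and Cd3d, the genes of the CD3 epsilon and delta chains. Both passed the authors' filter through B6 mice, and Nkg7 through PE-treated B6 mice, so lower values in MRL mice were favoured beforehand for these genes. Averaged over the 4 treatments, 4 of 9 markers were lower in MRL than in B6 mice and 0 were higher, against 7.87% and 7.37% of all genes. Cd3e fell by 2.45 on the log2 scale (SE 0.33, adjusted p = 2.15e-05, limma), Cd3d by 2.02 (SE 0.24, adjusted p = 4e-06), Lck by 1.32 (SE 0.37, adjusted p = 0.0199) and Nkg7 by 1.24 (SE 0.27, adjusted p = 0.00364). The median difference of the 9 markers was -1.17, beside -0.01 for all genes. The other 5 markers did not pass the test, with -1.17 for Cd3g (95% interval -2.13 to -0.21, adjusted p = 0.0885), 0.39 for Cd4 (-0.01 to 0.80, adjusted p = 0.17), -0.62 for Cd8a (-1.20 to -0.04, adjusted p = 0.13), -1.14 for Ptprc (-2.05 to -0.24, adjusted p = 0.0798) and -0.67 for Coro1a (-1.47 to 0.13, adjusted p = 0.234). The 4 calls held without any single library. Without PE-treated MRL replicate 2, 7 of 9 were lower (17.7% of all genes), as Cd3g (-1.39, adjusted p = 0.0205), Ptprc (-1.56, adjusted p = 2.63e-05) and Coro1a (-1.03, adjusted p = 0.000605) were then also called. Cd3g was likewise called without Saline-treated B6 replicate 2 (-1.32, adjusted p = 0.0494).

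Genes of other leukocytes moved with this strain difference. All 20 pan-leukocyte genes, none of them among the markers, had negative differences on average (median -0.99), and 4 were called lower, while without PE-treated MRL replicate 2 the median was -1.35 and 19 were called. All 11 macrophage genes were negative as well (median -0.94), with 4 called lower, and without that library the median was -1.36 and 11 were called. The part of leukocyte content in the lower T cell markers was not tested.

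In uninjured muscle, Cd3e stood at 0.48, -0.78 and -0.10 log2 CPM in B6 mice and at -2.97, -3.65 and -3.65 in MRL mice, so that 2 of 3 MRL libraries held no count. The B6 libraries held about 67 counts in all and the MRL libraries about 1, a ratio of 55.5 whose 95% exact interval of 11.6 to 2690 covers counting error only. The fitted difference was -3.29 (SE 0.65, adjusted p = 0.00542, limma), and its size depends on the prior count added to each value. Cd3d stood at 0.29, 0.63 and 0.69 log2 CPM in B6 and at -1.24, -1.17 and -1.62 in MRL mice, a difference of -1.89 (SE 0.48, adjusted p = 0.0357). Neither gene overlapped between the strains.

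Cd4, the co-receptor of helper T cells, went the other way in uninjured muscle. It stood at -1.23, -1.13 and -1.77 log2 CPM in B6 and at 0.18, 0.32 and 0.35 in MRL mice, with every MRL library above every B6 library. The difference was 1.66 (SE 0.39, adjusted p = 0.0209, limma). Cd8a, the co-receptor of cytotoxic T cells, differed by -0.08 (95% interval -1.23 to 1.08, adjusted p = 0.981). Thus 1 of 9 markers was higher and 2 were lower in uninjured MRL muscle, where 1.35% and 1.25% of all genes were. Without overlap, 1 was higher (12.2% of all genes) and 4 were lower (9.61%), as Lck (-2.09, adjusted p = 0.208) and Nkg7 (-1.09, adjusted p = 0.484) separated as well. The call of Cd3e held without any single library (adjusted p from 0.00931 to 0.0421). That of Cd3d was lost without any 1 of the 6 libraries (0.0705 to 0.172), and that of Cd4 without uninjured B6 replicate 3 (0.12) or uninjured MRL replicate 1 (0.0568), 2 (0.0727) or 3 (0.0888).

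After the control injury, 0 of 9 markers were called between strains by limma (2.51% of all genes). An unadjusted p under 0.05 was found for 3 markers and for 1880 of 14159 genes. All 9 differences were negative, with a median of -0.92 beside 0.01 for all genes. Cd3e read 0.67, -1.03 and -1.02 log2 CPM in B6 and -1.77, -2.65 and -2.39 in MRL mice (-1.81, SE 0.65, adjusted p = 0.205). Cd3d read 0.44, 0.27 and 1.80 in B6 and -0.38, -0.88 and -1.27 in MRL mice (-1.68, SE 0.48, adjusted p = 0.0772), and it was called without Saline-treated B6 replicate 2. Cd3e, Cd3d and Nkg7 were lower in MRL mice without overlap, 3 of 9 against 7.72% of all genes.

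With ECM, 1 of 9 markers was lower in MRL mice (1.38% of all genes). Cd3d stood at 1.62, 1.28 and 1.37 log2 CPM in B6 and at -0.82, -1.32 and -0.16 in MRL mice, a difference of -2.19 (SE 0.48, adjusted p = 0.0111, limma). The call was lost without ECM-treated B6 replicate 1 (adjusted p = 0.0585) or ECM-treated MRL replicate 2 (0.0848). Cd3e, at 0.64, 0.25 and 0.04 in B6 and -1.52, -2.87 and -0.76 in MRL mice, differed by -2.03 without passing the test (adjusted p = 0.131). Cd3e, Cd3d and Ptprc did not overlap, 3 of 9 lower against 12.8% of all genes.

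With PE, 2 of 9 markers were lower in MRL mice (1.74% of all genes). Cd3e stood at -0.69, 0.80 and 0.26 log2 CPM in B6 and at -2.60, -1.36 and -3.65 in MRL mice, a difference of -2.66 (SE 0.65, adjusted p = 0.0274, limma). Cd3d stood at 1.39, 1.36 and 1.66 in B6 and at -2.11, -0.19 and -0.31 in MRL mice, a difference of -2.34 (SE 0.48, adjusted p = 0.00708). Lck and Nkg7 separated too, so that 4 of 9 were lower without overlap (7.59% of all genes). The call of Cd3e was lost without PE-treated B6 replicate 2 (adjusted p = 0.125) or 3 (0.088) or PE-treated MRL replicate 1 (0.104) or 3 (0.164), and that of Cd3d without PE-treated MRL replicate 1 (0.0545). When PE-treated MRL replicate 2 was left out, 5 of 9 were lower (14.1% of all genes), namely Cd3e, Cd3d, Ptprc, Coro1a and Nkg7. Beside these, all 20 pan-leukocyte genes were negative with PE (median -1.86, 0 called), as were all 11 macrophage genes (median -1.93, 1 called lower) and all 6 neutrophil genes (median -2.04, 2 called lower). The 8 adipocyte genes were all positive (median 3.2, 1 called higher), and 4 of 5 blood genes were called higher. Without that library 18 pan-leukocyte, 10 macrophage and 5 neutrophil genes were called lower and 7 adipocyte genes higher.

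**Figure D2:**
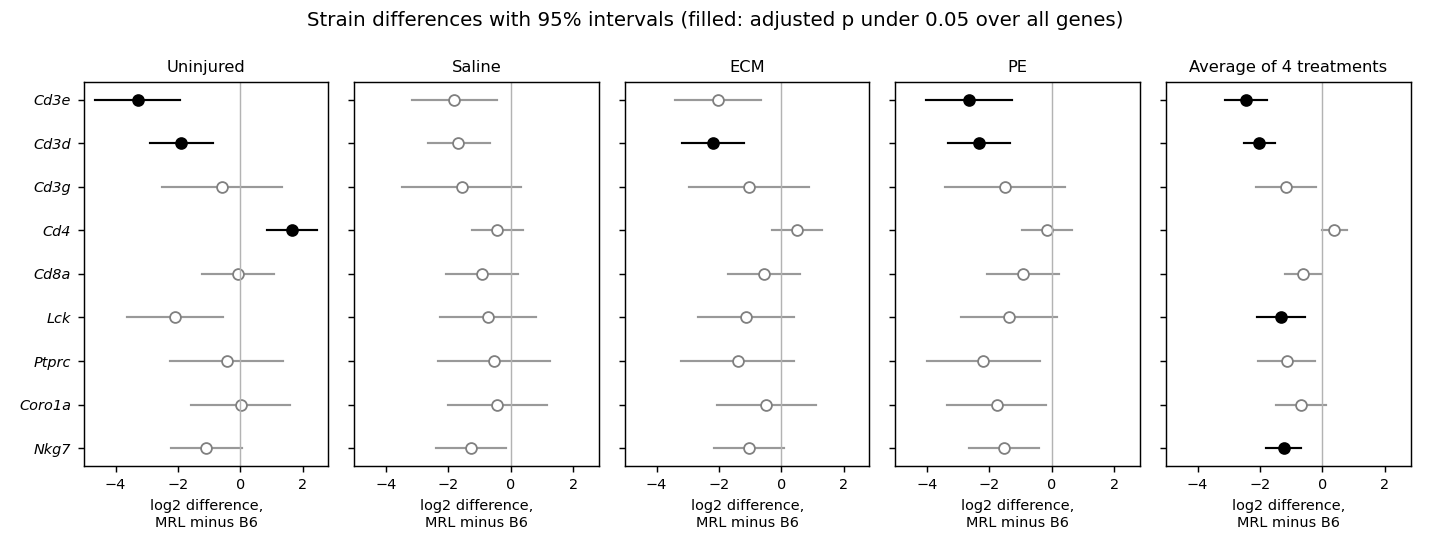
Points show the log2 difference between MRL and B6 mice for each marker (horizontal axis) in each treatment and averaged over the 4 treatments, with 95% intervals as lines, and filled points passed the test over all genes. Cd3e and Cd3d lie below 0 in every panel, and Cd4 lies above 0 with a filled point in uninjured muscle alone.

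Over the whole design, Cd3d was lower in all 12 MRL libraries than in all 12 B6 libraries, which held for 111 genes of the table. Cd3e and Cd3d were both lower without overlap within each of the 4 treatments, as were 194 genes of the table. Around this cluster on chromosome 9, 14 further genes within 500 kb were in the table, a set chosen after its values were seen. Of these, 0 were lower and 3 were higher in MRL mice on average by limma, against 7.87% and 7.37% of all genes. The 3 were Bcl9l (1.79, adjusted p = 0.0344), Ube4a (0.40, adjusted p = 0.00561) and Mpzl3 (0.71, adjusted p = 0.00217).

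Whether other genes of the T cell receptor machinery were called between strains turned on 1 library. Of 27 listed genes of the receptor complex and its signalling, 14 were in the table and 0 were called in the average comparison by limma, where 6 differences were positive and 8 negative with a median of -0.24. Cd247, which encodes the CD3 zeta chain, stood at 1.48 in MRL and 1.49 in B6 mice (difference -0.02, SE 0.19, adjusted p = 0.961). Zap70, the kinase that docks on these chains, differed by -0.99 (SE 0.37, adjusted p = 0.0762), and Lat, the adaptor downstream of it, by -1.55 (SE 0.68, adjusted p = 0.129). In the fit without PE-treated MRL replicate 2, 6 of 14 were lower and 0 higher, where 17.7% and 15.1% of all genes were. These were Cd2, an adhesion receptor of T cells (-1.17, adjusted p = 0.000806), Lcp2 (-1.27, adjusted p = 0.000849), Lat (-2.07, adjusted p = 0.00574), Ptpn22 (-0.85, adjusted p = 0.0149), Zap70 (-1.12, adjusted p = 0.0263) and Rasgrp1 (-0.71, adjusted p = 0.0393). Cd247 stood at 0.11 in that fit (SE 0.15, adjusted p = 0.573). Whether these differences themselves differ from that of Cd3e was not tested. Prkcq, a kinase that muscle fibres also express, differed by 0.11 (SE 0.17, adjusted p = 0.686).

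Of 18 listed genes of natural killer or cytotoxic T cells 5 were in the table. Their summed CPM ran from 6.58 to 13.4 in PE-treated B6 and from 3.72 to 5.82 in PE-treated MRL mice. Through which groups they passed the authors' filter was not examined. On average 4 of the 5 were lower in MRL mice by limma, against 7.87% of all genes. These were Klrk1, an activating receptor, at -1.64 (SE 0.27, adjusted p = 0.000244), Il2rb, a chain of the interleukin-2 receptor, at -1.19 (SE 0.24, adjusted p = 0.00186), Klrd1 at -1.30 (SE 0.35, adjusted p = 0.016) and the protease gene Gzma at -0.97 (SE 0.30, adjusted p = 0.0361). Ccl5, a chemokine, differed by -0.61 (SE 0.34, adjusted p = 0.219). The same 4 were called lower without PE-treated MRL replicate 2 (17.7% of all genes), and the pan-leukocyte and macrophage genes given above were negative in the same comparison. Nkg7 itself stood between -1.97 and -1.34 log2 CPM in uninjured B6 and between -3.65 and -2.29 in uninjured MRL mice. With PE it stood at 0.60, 1.10 and 0.24 in B6 and at -0.98, -0.55 and -1.15 in MRL mice. In both treatments every MRL library lay below every B6 library. With PE this order was favoured by the authors' filter, which Nkg7 passed through PE-treated B6 mice. Among 15 listed genes of T cell subsets and homing, 3 were lower on average and 0 were higher, against 7.87% and 7.37% of all genes. Ccr7, a chemokine receptor that guides T cells and dendritic cells to lymph nodes, was among the 3 (-1.21, SE 0.29, adjusted p = 0.00726). Without PE-treated MRL replicate 2 these counts were 5 and 1, against 17.7% and 15.1% of all genes.

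Within B6 mice, PE was followed by higher levels of the broad leukocyte genes, of Cd4 and of Nkg7, while the CD3 genes did not pass the test (Cd3d did in a fit on these 2 groups alone). Against uninjured muscle 4 of 9 markers rose and 0 fell, where 14.7% and 10% of all genes did, and 7 of 9 were higher without overlap (27% of all genes). Ptprc went from 3.09, 3.00 and 2.92 log2 CPM in uninjured to 7.26, 8.08 and 6.49 in PE-treated muscle, a rise of 4.27 (SE 0.86, adjusted p = 0.00404, limma). Coro1a went from 2.52, 2.47 and 2.10 to 6.18, 7.14 and 5.45, a rise of 3.89 (SE 0.76, adjusted p = 0.00332). The ranges of both genes lay far apart.

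Cd4 went from -1.23, -1.13 and -1.77 log2 CPM to 1.76, 2.05 and 0.93 with PE, a rise of 2.95 (SE 0.39, adjusted p = 0.00142). Nkg7 went from -1.97, -1.76 and -1.34 to 0.60, 1.10 and 0.24, a rise of 2.34 (SE 0.54, adjusted p = 0.00791, limma), which was lost without PE-treated B6 replicate 2 (adjusted p = 0.0587). By the scaled values Nkg7 passed the authors' filter through these PE-treated B6 libraries, so its rise was favoured beforehand. The remaining markers gave 0.26 for Cd3e (95% interval -1.11 to 1.63, adjusted p = 0.788), 0.93 for Cd3d (-0.07 to 1.93, adjusted p = 0.146), 1.97 for Cd3g (0.05 to 3.89, adjusted p = 0.115), 1.08 for Cd8a (-0.07 to 2.24, adjusted p = 0.144) and 1.86 for Lck (0.32 to 3.40, adjusted p = 0.068). All 9 differences were positive, with a median of 1.97 beside 0.02 for all genes.

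Other cell types moved with this comparison. All 20 pan-leukocyte genes and 10 of 11 macrophage genes rose, and the summed CPM of the macrophage genes went from 167 to 215 in uninjured to 1620 to 5760 in PE-treated B6 muscle. The dendritic cell genes went from 15.8 to 19 summed CPM to 295 to 1000. Of these 8 genes 4 were called higher, 7 differences were positive and 1 was negative, with a median of 0.96. Their sum therefore does not describe each of them. The 5 blood genes fell from 1310 to 2900 to 70.3 to 118 summed CPM. Among the T cell receptor genes 7 of 14 rose, among them Lcp2 (3.08, adjusted p = 0.00725), Lat (5.74 from values near 0, adjusted p = 0.00937), Ptpn22 (2.11, adjusted p = 0.0119), Zap70 (2.52, adjusted p = 0.0221) and Rasgrp1 (1.76, adjusted p = 0.028). Several of these, Lcp2 and Ptpn22 among them, are also expressed by myeloid cells. The part of the macrophages in the rise of Ptprc, Coro1a and Cd4 was not tested.

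Against the control injury, PE raised 2 of 9 markers in B6 mice (5.37% of all genes), Ptprc by 3.36 (SE 0.86, adjusted p = 0.0316, limma) and Coro1a by 2.79 (SE 0.76, adjusted p = 0.0386). Both calls were lost without PE-treated B6 replicate 1 or 2 or without any Saline-treated B6 replicate (adjusted p from 0.063 to 0.279). Lck and Nkg7 also separated, so 4 of 9 were higher without overlap (18.7% of all genes). Against ECM, 0 of 9 markers were called by limma (0.226% of all genes). For 4 markers and for 2911 of 14159 genes the unadjusted p was under 0.05. Cd4, Ptprc, Coro1a and Nkg7 were higher with PE than with ECM without overlap, 4 of 9 against 19.5% of all genes.

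The control injury alone was followed by no called marker in B6 mice against uninjured muscle (0% of all genes, limma). The unadjusted p was under 0.05 for 1 marker, Cd4, and for 1751 of 14159 genes. Cd4 read 1.13, 0.49 and 0.97 log2 CPM after the control injury, all above the uninjured libraries (2.24, SE 0.39, adjusted p = 0.197), and it was called without Saline-treated B6 replicate 2. With ECM, 0 of 9 were called against uninjured muscle (0.424% of all genes). Here 3 markers and 2372 of all genes had an unadjusted p under 0.05. In both of these comparisons 4 of 9 markers were higher without overlap, against 8.59% and 17.7% of all genes. Between ECM and the control injury 0 of 9 were called (0.0283% of all genes). There 0 markers and 565 of all genes had an unadjusted p under 0.05. These comparisons share the uninjured or Saline-treated libraries.

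In MRL mice, PE was followed by higher Lck and Nkg7. Against uninjured muscle 2 of 9 markers rose and 0 fell (5.95% and 3.78% of all genes), and 5 of 9 were higher without overlap (18.9%). Lck went from -2.32, -2.29 and -3.65 log2 CPM to -1.08, 0.31 and 0.28 (2.59, SE 0.74, adjusted p = 0.0463, limma), and Nkg7 from -2.38, -2.29 and -3.65 to -0.98, -0.55 and -1.15 (1.88, SE 0.54, adjusted p = 0.0463). Without PE-treated MRL replicate 2 the differences were 2.35 and 1.71 and the adjusted p of both was 0.194, in a fit that called 1 gene higher in all (0.00706%). Both calls were also lost without uninjured MRL replicate 1 (adjusted p = 0.109 for both) or 3 (0.188 and 0.189).

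Ptprc stood at 2.81, 3.08 and 1.83 log2 CPM in uninjured and at 3.29, 8.42 and 3.54 in PE-treated MRL muscle (2.51, SE 0.86, adjusted p = 0.0603), and Coro1a at 2.26, 2.90 and 1.96 and at 2.99, 7.40 and 3.07 (2.11, SE 0.76, adjusted p = 0.0674). In both genes the high value of replicate 2 was above the range of PE-treated B6 mice, while the other two libraries lay below it. The macrophage genes moved with it, at 4820 summed CPM in that library against 282 and 283. In the other 5 comparisons between treatments of MRL mice, 0 of 9 markers were called by limma, where 0% of all genes were for Saline, and 0.0141% for ECM, against uninjured muscle, 0.00706% for ECM and 0% for PE against Saline, and 0% for PE against ECM. At an unadjusted p under 0.05 there were 1 marker for Saline (439 of 14159 genes) and 2 for ECM (538 genes) against uninjured muscle. Against Saline there were 0 markers for ECM (503 genes) and 2 for PE (3298 genes). Against ECM there was 1 marker for PE (4022 genes).

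The response to treatment was compared between strains by the interaction of strain and treatment. In 6 such tests 0 of 9 markers were called by limma, where 0.0212% of all genes were for PE and 0.00706% for ECM against uninjured muscle and 0% in the other 4 tests. Cd4 had an unadjusted p under 0.05 for Saline, ECM and PE against uninjured muscle, where 570, 512 and 1652 of 14159 genes had one. In the tests against Saline or ECM 0 markers had one. There 320 genes had one for ECM and 614 for PE against Saline, and 522 for PE against ECM. For Cd4 the response differed most between the control injury and uninjured muscle, at -2.09 (SE 0.55, adjusted p = 1). The PE response differed by -1.76 for Ptprc (SE 1.22, adjusted p = 0.639) and by -1.78 for Coro1a (SE 1.08, adjusted p = 0.571). Without PE-treated MRL replicate 2 these became -3.43 (SE 0.62, adjusted p = 0.00235) and -3.24 (SE 0.56, adjusted p = 0.00162), 2 of 9 lower against 5.22% of all genes. Against Saline and ECM in place of uninjured muscle the same 2 genes were then lower, where 3.74% and 1.43% of all genes were.

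**Figure D3:**
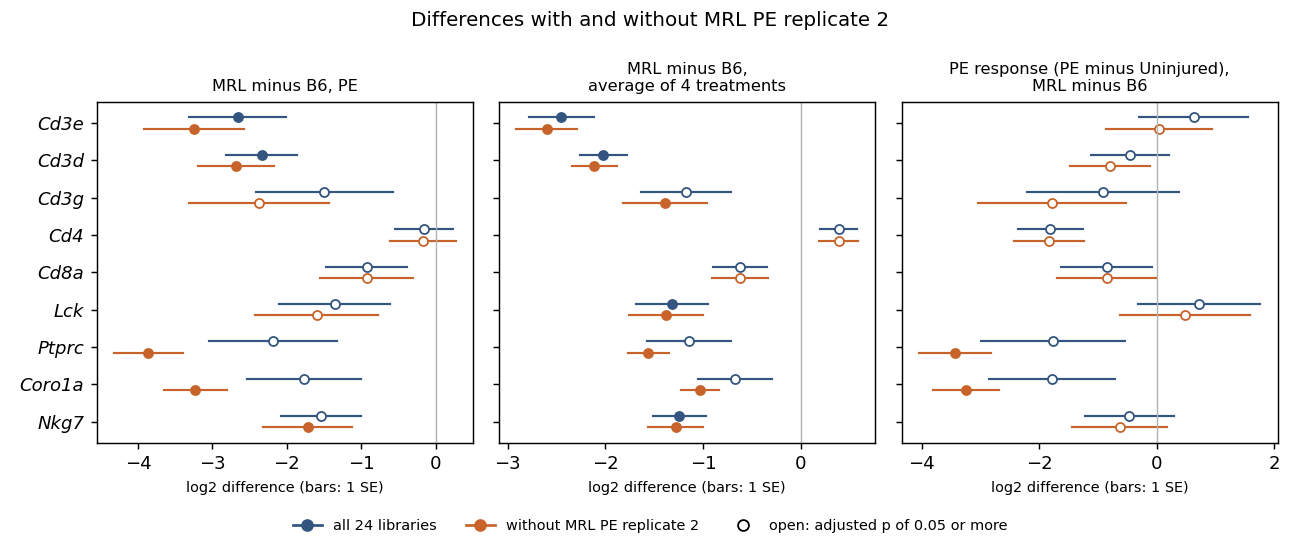
Log2 differences (horizontal axis, lines of 1 SE) of each marker between strains with PE, between strains on average and between the PE responses of the strains, from all 24 libraries in blue and without PE-treated MRL replicate 2 in orange, with open points where the adjusted p was 0.05 or more. Ptprc and Coro1a shift furthest to the left, to -3.86 and -3.23 in the first panel, whereas Cd3e and Cd3d are filled in both colours in the first and second panels.

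Differences between markers within a library do not depend on how libraries were scaled, apart from the prior, which weighs on low values, and their zero has no meaning because the genes differ in length. The difference of Cd4 and Cd8a in log2 CPM ranged from -0.60 to -0.08 in uninjured B6 and from 0.77 to 1.93 in uninjured MRL muscle. Averaged over the 4 treatments it was 1.73 in MRL and 0.72 in B6 mice, 1.01 higher in MRL mice (2-sided exact permutation test within treatments, 160000 arrangements, p = 0.00595). By treatment it was 1.73 higher in uninjured muscle, 0.49 with Saline, 1.06 with ECM and 0.77 with PE. The strains did not overlap in uninjured muscle and overlapped in the other 3 treatments.

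The difference of Cd4 and Cd3e was wider apart, from -1.71 to -0.35 in uninjured B6 and from 3.15 to 4 in uninjured MRL muscle, and the strains also separated with Saline, ECM and PE. Cd3e had no count in uninjured MRL replicates 2 and 3 and in PE-treated MRL replicate 3, so the differences there (3.97, 4 and 5.23) are set by the prior and the scaling. Cd3d fell behind Ptprc in PE-treated B6 mice, where their difference ranged from -6.72 to -4.84 against -2.80 to -2.23 in uninjured B6 mice. That of Coro1a and Ptprc moved within -1.75 and 0.13 over all libraries.

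**Figure D4:**
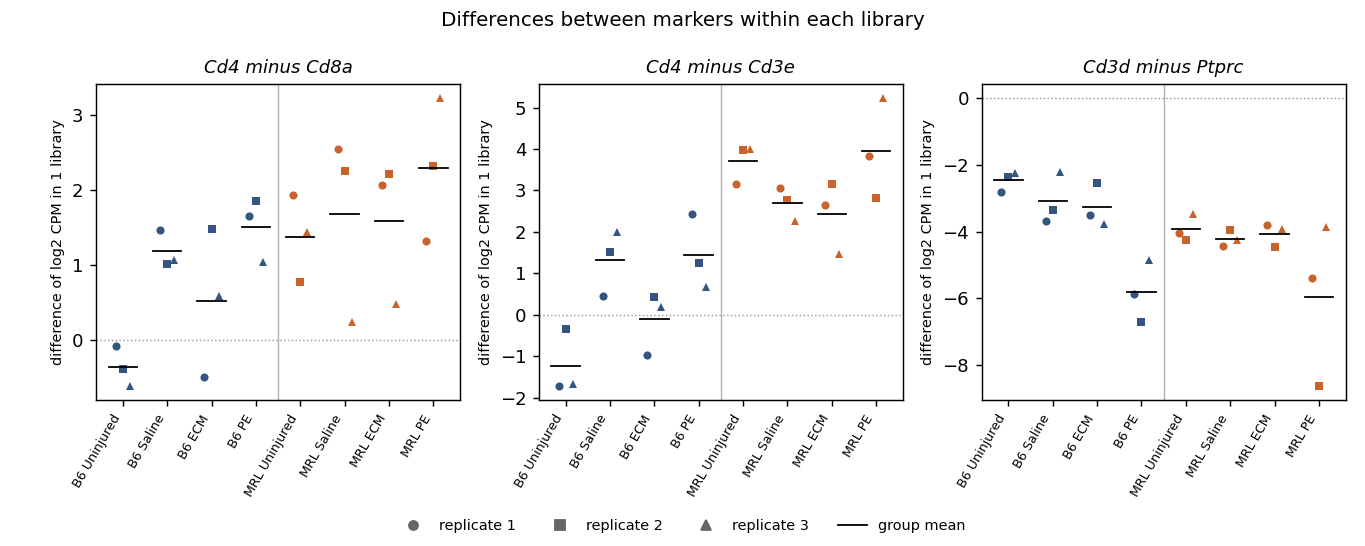
Differences in log2 CPM (vertical axis) between Cd4 and Cd8a, Cd4 and Cd3e, and Cd3d and Ptprc inside each library, by group, with a symbol for each replicate and a bar at the group mean. The difference of Cd4 and Cd3e is at least 3.15 in uninjured MRL and at most -0.35 in uninjured B6 muscle, and that of Cd3d and Ptprc reaches -8.61 in PE-treated MRL replicate 2.

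The genes whose levels followed Cd3e and Nkg7 most closely shared no member. Over the 24 libraries the 6 genes most like Cd3e were Trim5, 9930104L06Rik, Mup11, Rpl3, Mup19 and Rps18, with Pearson's r of 0.905 to 0.865. Within the 12 B6 libraries the same r ran from -0.119 to 0.25, and within the 12 MRL libraries from 0.594 to 0.827. Several of these belong to families with near-identical copies, so their levels are uncertain. The 6 most like Nkg7 were Pid1, Bst2, Ifi203, Ebi3, Parp14 and Rnf213 (r = 0.897 to 0.886), and within strains these stayed between 0.857 and 0.911 in B6 and between 0.731 and 0.866 in MRL mice. Bst2, Ifi203, Parp14 and Rnf213 are known as genes that interferon induces. The libraries share their scaling and depth, and these values describe them without a test.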

How the data were processed

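Per the labels and the study's methods, total RNA of whole quadriceps was made into polyA-selected libraries. The authors quantified transcripts with kallisto against Ensembl cDNA (GRCm39), summed them to genes with tximport, kept genes above 1 CPM in at least 3 libraries, scaled libraries with TMM and deposited log2 CPM values with a prior count of 2. Both strains were quantified on this one reference, and how that affects MRL values was not measured. Of 14160 rows, 1 without a symbol was left out. For sums over lists, log2 CPM was made linear and the prior of 0.0795 CPM subtracted. Groups came from GEO's labels.

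Comparisons used limma 3.58.1 in R 4.3.3 on log2 CPM, with 8 group means over 24 libraries, a variance trend, 2-sided tests and Benjamini-Hochberg adjustment over 14159 genes. The study used voom weights on counts, which log2 CPM does not allow. Where libraries are not stated to be separate mice, p-values measure the spread between libraries. On simulated data for the PE strain comparison, 91% of changes of 3 and 50% of changes of 1.5 on the log2 scale among 200 changed genes were called, with 4 false calls. The simulation gave each gene normal noise of the same spread in every library, with no floor at low counts and no outlying library. Its rates therefore need not hold for markers near the floor or for PE-treated MRL mice. Promoters and positions came from GENCODE vM39 (Ensembl canonical starts). Members and lists were chosen with earlier results of these data known. All markers in the table were named, and other genes were named when called, up to 6 per list and comparison by adjusted p, or as defining markers. Replicate numbers were checked for pairing by the correlation of residuals between libraries of the same number. All 3 exceeded 0.1 in 1 of 16 comparisons, PE-treated MRL against B6 mice (0.105, 0.532 and 0.439). Some genes that the rule would name are not reported here.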

Additional observations from a re-analysis of the deposited data

How the results depend on the processing

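Over the alternatives, 316 refits of marker counts and of the Cd4 and Cd8a difference stayed with the value given and 62 moved. No called marker changed sign. A count of called markers stayed when it was within 1.5 times of the value given. The refits of the Cd4 and Cd8a difference, tallied with these, all kept their sign and a p below 0.05 (permutation tests). Those of this tally that moved were all counts of called markers. Refits of single markers were tallied apart. Of these, 377 stayed, 50 were weaker, as the call was lost, and 8 were stronger, as a call was gained. Of the markers not called, 1 (Cd3e, with library weights) changed sign and was called. With log2(CPM + 1), 0 markers were called between strains in uninjured muscle, 1 with Saline (Cd3d), 1 for B6 PE against ECM (Nkg7) and 0 for MRL PE against uninjured. After a filter on low values (mean of at least 1 log2 CPM), where only Ptprc and Coro1a remain of the markers, 0 were called between strains in uninjured, ECM, PE and on average, 2 for B6 PE against uninjured and 0 for MRL PE against uninjured. With equal totals 1 (Cd3e) was called between strains in uninjured muscle and 4 for MRL PE against uninjured, while the median of all genes moved from 0.02 to 0.43 for B6 PE against uninjured, from 0.07 to 0.47 in MRL mice and from -0.01 to -0.15 for the average strain difference. A constant prior variance gave 1 for B6 Saline against uninjured (Cd4) and 0 for MRL PE against uninjured. A fit on the compared groups alone gave 0 between strains with PE (adjusted p = 0.271 for Cd3e and 0.221 for Cd3d, limma), 1 for B6 ECM against uninjured (Ptprc), 5 for B6 PE against uninjured (Cd3d in addition), 1 for B6 PE against ECM (Coro1a) and 0 for MRL PE against uninjured. The cause of these shifts was not tested, except where fewer genes or libraries enter by construction.

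Library weights, whose estimation stopped before it converged and which ranged from 0.057 to 56.3, gave 8 called markers between strains with Saline, 3 with ECM, 8 with PE and 8 on average. In B6 mice they gave 5 for Saline, 4 for ECM and 8 for PE against uninjured, 2 for ECM and 7 for PE against Saline (6 higher and Cd3e lower, at -1.26 with an adjusted p of 9.35e-05, where it was 0.59 and not called without weights) and 4 for PE against ECM, with 1 for MRL PE against Saline. For the strain difference in response they gave 1 for Saline and 4 for PE against uninjured, 2 for PE against Saline and 2 for PE against ECM. They called 8053 genes on average and 7996 with PE, against 2158 and 474 without weights. For the other comparisons the share of all genes is not given here. Those counts therefore describe the weighted fit and are no result about the markers. The same holds for other counts of this section printed without such a share. Without PE-treated MRL replicate 2 the unweighted fit called 4637 genes on average and 3490 with PE.

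With the replicate number as a block, 0 markers were called for MRL PE against uninjured (adjusted p = 0.0509 for Lck and 0.0531 for Nkg7), and the other counts of called markers stayed within 1.5 times. Between strains with PE, the comparison whose numbers paired, the block gave 2 called markers and 409 genes. Leaving out 1 library at a time gave 1 to 2 called markers between strains in uninjured muscle, 0 to 1 with Saline, 0 to 1 with ECM, 0 to 5 with PE and 4 to 7 on average. It gave 0 to 1 for Saline, 3 to 5 for PE against uninjured and 0 to 2 for PE against Saline in B6 mice, 0 to 4 for PE against uninjured and 0 to 1 for PE against Saline in MRL mice, and 0 to 2 for the PE interactions. The difference of Cd4 and Cd8a between strains ranged from 0.89 to 1.19.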

Other observations

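Genes of B cells and plasma cells, the lymphocytes that Cd79b would have marked, gave a mixed picture. Of 22 listed genes 12 were in the table, and in the average strain comparison (limma) 2 were lower in MRL mice, Cd74, the invariant chain of class II presentation (-1.18, SE 0.26, adjusted p = 0.00354), and Igkc, the kappa light chain (-1.89, SE 0.57, adjusted p = 0.0324), while 0 were higher, against 7.87% and 7.37% of all genes. Without PE-treated MRL replicate 2, 6 were lower and 1 was higher, against 17.7% and 15.1%. Ighm, the heavy chain of IgM, differed by 0.61 (adjusted p = 0.0611; 0.60 and 0.0466 without that library), and Pax5, the factor that defines B cells, by -0.11 (adjusted p = 0.892). With PE against uninjured B6 muscle 7 of 12 differences were positive and 5 negative. By limma 6 of 12 rose and 0 fell, against 14.7% and 10% of all genes. The 6 were Btk (3.85, adjusted p = 0.00404), Blnk (4, adjusted p = 0.00411), Cd74 (2.49, adjusted p = 0.00442), Cd37 (3.64, adjusted p = 0.00621), Cd22 (4.07, adjusted p = 0.00999) and Igkc (3.31, adjusted p = 0.0429). Several of these, Cd74, Btk and Cd37 among them, are also expressed by myeloid cells. Of 3 lymph node genes in the table, Ccl19, a chemokine that guides T cells, was higher in MRL mice (1.41, SE 0.26, adjusted p = 0.000945, and 1.54 without that library), whereas Ccl21a differed by -0.13 (adjusted p = 0.753).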
